A study of Homo sapiens with 6 samples.

Results

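Cufflinks assembled transcripts from the sequenced RNA of HEK293 cells, a human embryonic kidney line with neuronal traits. Some of these were spliced but overlapped no exon, on their own strand, of the annotation that guided the assembly. These unannotated spliced transcripts were chosen by structure and position alone. They carried an identifier given by Cufflinks, a strand and at least 2 exons, they were grouped with no annotated transcript, and their exons overlapped no annotated exon on the same strand in the same library. In all, 1843 of the 954116 transcripts listed over 6 libraries met this rule, and joining those whose exons overlapped on the same strand gave 1092 loci. The 3 heat shock libraries came from cells exposed to 45°C in a water bath, for 30 minutes in all, and the 3 control libraries from untreated cells of the same line, grown at 37°C. Total RNA was depleted of ribosomal RNA with RiboMinus, and libraries were made with the TruSeq RNA kit. The labels name no construct or edit in either group. The labels do not tie the libraries of a group to separate cultures, so every p-value measures only the spread between these libraries.

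The spliceosome removes introns from nascent RNA, and most human introns begin with GT and end with AG. A small class begins with AT and ends with AC and is removed by a separate minor spliceosome, and a few begin with GC. A spliced alignment, in which one read is split over a gap in the genome, is the evidence from which an assembler builds an intron, and the kit used here does not mark strand, so the strand of these transcripts came from the bases at the ends of the gap. Heat shock is known to slow splicing, and in human cells it is known to induce transcription of satellite III repeats, arrays of GGAAT units near centromeres.

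The introns fell into classes that are plain in the sequence itself. Bases around the ends of 6 introns are printed from GRCh37, 15 on either side of each splice site, with the first pair or the last pair of intron bases in capitals. The first intron joined pseudogenes of the 7SK small nuclear RNA on chromosome 14 and was listed identically in all 6 libraries (chr14:90088288-90178880, + strand).
7SK pseudogenes, 5′ end: caatctggctgcgacATctgtcatcccatt
7SK pseudogenes, 3′ end: cgatctggctgcgACatctgtcaccccatt
A satellite locus beside the centromere of chromosome 10 held an AT-AC intron listed in 4 libraries (chr10:42383691-42385527, - strand).
Chromosome 10 satellite, 5′ end: tttgatgatgattacATtcgatgccatttg
Chromosome 10 satellite, 3′ end: tttgatgatgattACattcgattccatttg
A locus on chromosome 7, listed in control libraries only, held a GT-AG intron listed in 2 libraries (chr7:61969471-61971167, + strand).
Chromosome 7 locus, 5′ end: ctgtggcattttcagGTggagatttcaagc
Chromosome 7 locus, 3′ end: ctgtggaattttcAGgtggagatttcaagc
In these 3 introns the window at the 5′ end repeats the window at the 3′ end, with 28, 29 and 29 of 30 bases identical. The other 3 introns were listed in all 6 libraries and their ends differ. They lie antisense to CHM (chrX:85145668-85149194, + strand), in STK32C as GENCODE 44 draws it (chr10:134143990-134144939, - strand) and in PIK3CD-AS2 (chr1:9741194-9747392, - strand).
Antisense to CHM, 5′ end: tcagcctatggaactGTaagtccaattaaa
Antisense to CHM, 3′ end: ctactatgcttacAGgtgcctttcatgcat
STK32C, 5′ end: gggcgaggaaacgcaGTgagtgtcctgagg
STK32C, 3′ end: ctatctaccaatcAGgaagctgaaagcaca
PIK3CD-AS2, 5′ end: gagccccccaacctgGTaagtacaatgatc
PIK3CD-AS2, 3′ end: tctgtctctctccAGtgctctcatctcttg
Here 9, 6 and 8 of 30 bases were identical, which is close to the median of 9 over the 209258 introns of the annotation.

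This likeness divided the unannotated introns as a whole. Of 1641 different introns, 867 (52.8%) had like ends, meaning that at least 20 of 30 bases were identical between both windows. The share was 1.75% among the 7010 unannotated introns that Cufflinks placed in annotated genes, and 0.0315% among annotated introns. The threshold of 20 was set after the values had been seen. At 18 or 25 identical bases the shares among the 1641 introns were 56.2% and 40.3%, against 1.87% and 1.48% among those placed in genes. Within each library, 22.4% to 63.5% of introns of the unannotated spliced transcripts had like ends, against 0.506% to 3.19% of unannotated introns placed in genes. The difference had the same direction in 6 of 6 libraries, with an exact two-sided sign-flip permutation p of 0.03125, the smallest that 6 libraries can give. The measure was added after these introns had been seen, and the introns placed in genes were assembled along annotated genes. This p-value therefore cannot tell a trait of these introns from the rule that chose them.

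**Figure D1:**
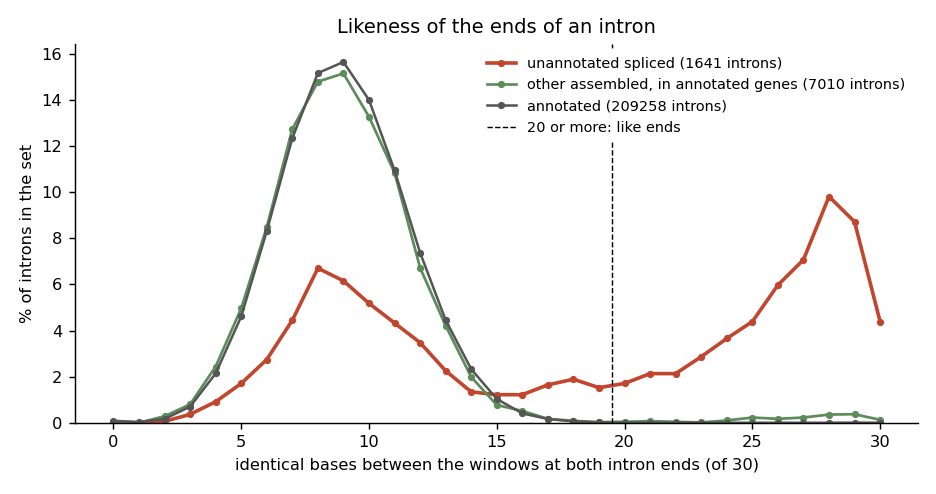
Identical bases between the 30-base windows at both ends of an intron (x axis) against the percent of introns in each set (y axis). Annotated introns and unannotated introns placed in genes form one peak at a median of 9. Introns of the unannotated spliced transcripts form that peak and another between 25 and 30, right of the dashed line at 20.

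The bases at the intron ends differed in the same manner. GT-AG introns made up 56.6% of the unannotated introns, GC-AG introns 20.8% and AT-AC introns 21.8%, and 14 introns had other ends. Unannotated introns placed in genes were GT-AG in 92.4%, GC-AG in 3.14% and AT-AC in 0.528%. In every library the AT-AC share was higher in the unannotated spliced transcripts (11.4% to 23.8%) than in introns placed in genes (0% to 0.797%). The GT-AG share was lower (49.1% to 81.7% against 91.9% to 94.0%). Each had an exact sign-flip permutation p of 0.03125, which likewise cannot tell a trait of these introns from the rule that chose them. Like ends were found in 80.4% of AT-AC introns, 79.5% of GC-AG introns and 31.7% of GT-AG introns, so the dinucleotides and the likeness of the ends moved together.

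A later annotation, GENCODE 44 lifted to GRCh37, held 333 (20.3%) of these introns at the same coordinates and strand. None of the 333 had like ends, whereas 66.3% of the 1308 introns absent from GENCODE did. A count of 0 in 333 allows a share of up to 0.901% if introns are taken as independent. They share loci and libraries, so this limit is only a rough one. Among GT-AG introns alone, 294 of the 597 not in GENCODE had like ends, against 0 of 331 that were in it.

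Recurrence followed the same division. Of the 1641 introns, 1386 were listed in 1 library and 255 (15.5%) in at least 2, of which 8 were in all 6. Like ends were found in 56.5% of introns listed in 1 library, in 43.3% of those in 2 and in 16.3% of the 98 listed in 3 or more. The share held by GENCODE was 15.1%, 38.2% and 65.9% for introns listed in 1, 2 and 3 libraries. These shares describe introns that overlap and share libraries, and were not tested.

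**Figure D2:**
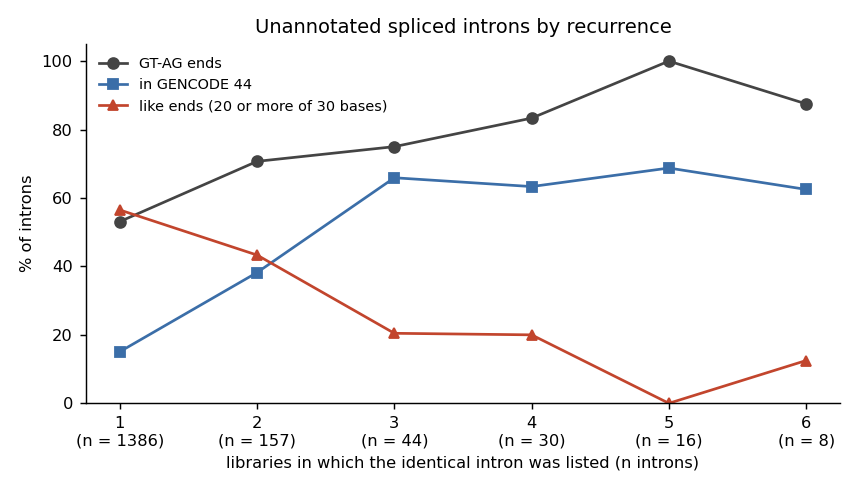
Number of libraries listing the identical intron (x axis, with the number of introns) against the percent of introns that were GT-AG, held by GENCODE 44 or had like ends (y axis). From 1 to 3 libraries the GENCODE share went from 15.1% to 65.9% and the share with like ends from 56.5% to 20.5%; only 8 introns were in all 6.

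At the level of loci, 806 of 1092 were listed in 1 library, 286 in at least 2 and 12 in all 6. An identical intron was shared between libraries at 196 (68.5%) of the 286. Loci listed in controls only numbered 555, those in heat shock libraries only 329, and 208 were in both. Few loci followed the groups throughout, with 2 listed in all 3 heat shock and no control libraries and 2 in all 3 control and no heat shock libraries. Where a locus was not listed in a library, an assembled transcript with no strand overlapped its exons in 50.8% of 4957 cases. No assembled transcript overlapped them in 43.3%, and annotated transcripts were not counted here. A missing member was seldom replaced by a spliced one on its strand (1.82%).

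GENCODE 44 placed the loci as follows. Some 229 (21.0%) shared an intron with a GENCODE transcript, 144 of them with a long non-coding RNA and 73 with a protein-coding gene. A further 166 (15.2%) overlapped a GENCODE exon on the same strand, 139 overlapped an exon on the other strand only, and 155 and 140 lay within the span of a gene on the same or the other strand without touching an exon. The remaining 263 (24.1%) lay outside GENCODE genes. Loci that shared an intron with GENCODE were listed in at least 2 libraries in 44.1% of cases, against 23.6% of those outside genes. In the annotation that guided the assembly, 619 loci (56.7%) were outside genes. Another 123 overlapped an exon on the other strand, and 156 lay inside a gene span on the same strand. The span of a gene on the other strand held 174, and 20 spanned part of a gene on the same strand.

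Assembly gaps marked another group. Within 1 Mb of a gap of at least 1 Mb, which in GRCh37 are mostly centromeres and heterochromatin, lay 133 loci (12.2%). The motif GGAAT, or ATTCC on the other strand, occurred over 20 times per kb of exon in 30 loci, 29 of which were near a gap (21.8% of that group). Among 37645 annotated spliced transcripts, 6 (0.0159%) passed the same limit. The CENP-B box, the binding motif of a centromere protein in alpha satellite, was found on either strand in 14.3% of loci near a gap, 0.313% of the others and 0.359% of annotated spliced transcripts. A stretch of the chromosome 10 satellite locus shows the repeat, with ATTCC in capitals (chr10:42596875-42597024, - strand).
Chromosome 10 satellite exon: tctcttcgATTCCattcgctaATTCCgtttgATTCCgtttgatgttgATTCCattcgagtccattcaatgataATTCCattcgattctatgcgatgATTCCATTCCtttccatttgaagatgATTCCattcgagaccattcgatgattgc

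Summed over their unannotated spliced transcripts, the 30 satellite-rich loci did not separate the groups. Strandless transcripts over these loci are left out of the sums. Control replicates 1, 2 and 3 had 769, 4603 and 310.3 FPKM over these loci. The heat shock replicates, in the same order, had 611, 759 and 1914 (exact permutation p = 0.8, adjusted p = 0.9 over 9 classes). Loci near gaps held 23.3%, 76.1% and 29.5% of the FPKM of all unannotated spliced transcripts in the controls, against 45.2%, 6.20% and 65.2% after heat shock. The spread within each group was wider than the distance between them. Near-identical repeat copies share reads, so the level of any single satellite locus is uncertain.

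The libraries themselves differed more than the groups. Control replicates 1, 2 and 3 listed 522, 374 and 184 unannotated spliced transcripts, and heat shock replicates 1, 2 and 3 listed 218, 251 and 294. Means were 360 ± 169 and 254 ± 38.1 transcripts (SD, n = 3 each, exact permutation p = 0.4, where 0.1 is the smallest p that 3 against 3 can give). Median FPKM, a level scaled to transcript length and to the fragments mapped in a library, was 1.52, 1.52 and 4.50 in the controls, against 9.03, 7.40 and 1.69 after heat shock (exact permutation p = 0.2). Heat shock replicate 3 was the lowest of its group and lay among the controls.

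The make-up of the introns followed the same libraries. GT-AG introns were 57.1%, 49.4% and 62.6% in the controls, against 81.7%, 80.9% and 49.1% after heat shock (exact permutation p = 0.4, adjusted p = 0.72 over 9 quantities). Introns with like ends were 51.2%, 63.5% and 48.1% in the controls, against 24.7%, 22.4% and 58.8% after heat shock (exact permutation p = 0.3). Heat shock replicates 1 and 2 stood apart from the other 4 libraries in both measures, and heat shock replicate 3 did not. Without it, the difference in like ends between the group means went from -19.0 to -30.7 percentage points. The exact permutation p was then 0.1, the smallest that 2 against 3 can give. As this library was singled out by its value, that p-value gives no support for a difference.

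**Figure D3:**
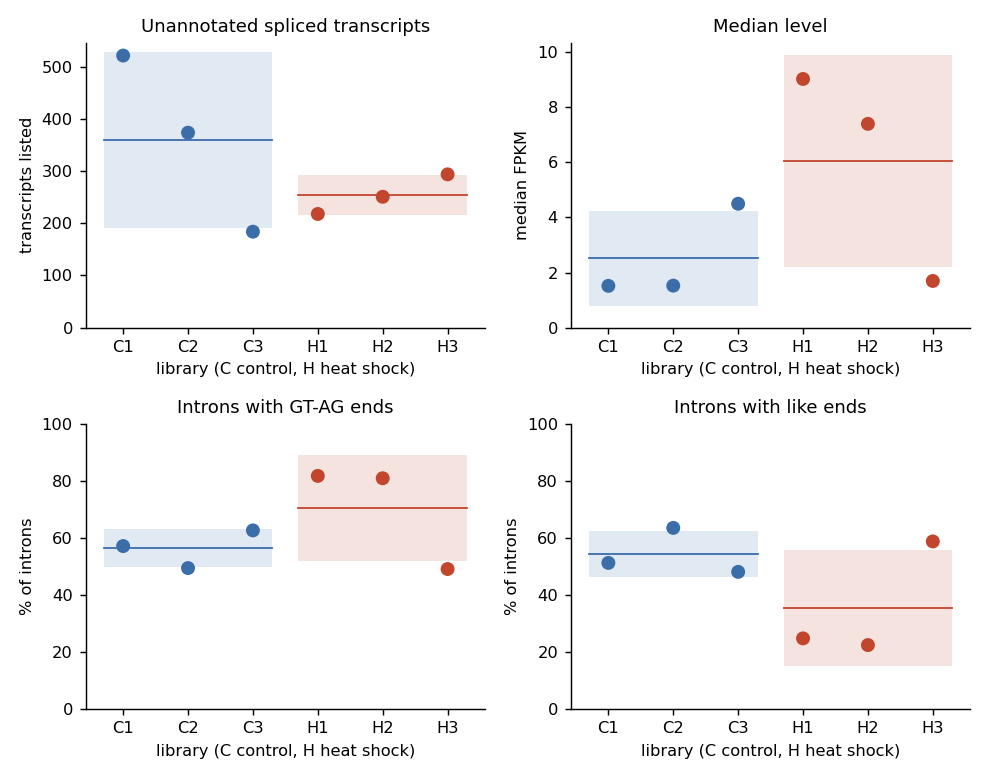
Transcripts listed, median FPKM, percent of introns with GT-AG ends and percent with like ends (y axes) in 3 control (C) and 3 heat shock (H) libraries (x axis); lines are group means and bands 1 SD. H1 and H2 have GT-AG shares of 81.7% and 80.9%, and H3, at 49.1%, lies with the controls.

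The same libraries also differed over the whole series. Single-exon transcripts with no strand numbered 17304 and 30334 in heat shock replicates 1 and 2, 45600 in control replicate 3, and 141632 to 194489 in the other 3. Deposited files gave FPKM and no counts, so the depth was unknown, although coverage over FPKM put the libraries within 2.03-fold of each other. As a check of the labels, DNAJB1, a co-chaperone of HSP70, was at 7.32, 4.84 and 9.18 FPKM in the controls and 121, 116 and 34.0 FPKM after heat shock (limma adjusted p = 0.710, Benjamini-Hochberg). These values and the next sum the assembled transcripts of a gene into it. Of 12 heat shock genes, 11 passed the minimum level and had a median change of 1.20 on the log2(FPKM + 1) scale. The 15 core splicing proteins had a median change of 0.83, beside 0.45 for all features of that fit, and no gene of either list passed the adjusted threshold. Of 9 HEK293 markers, VIM was at 85.3 to 929 FPKM and PAX2, LHX1 and EYA1 were at most 4.26 FPKM in any library. The 4 markers of other cells summed to 4.49 to 5.02 FPKM in the controls and 3.62 to 4.36 FPKM after heat shock, most of it COL1A1, a fibroblast collagen, and PTPRC and ALB, of leukocytes and hepatocytes, were at most 0.344 FPKM.

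Unannotated transcripts also differed in structure from the other spliced assembled transcripts, which were grouped with annotated genes or overlapped their exons. Between 8.84% and 17.9% of them had 3 or more exons, against 79.5% to 85.9% of the other spliced assembled transcripts. Their median length was 531 to 1639 bases, against 2360 to 3056, and their median FPKM was higher, at 1.52 to 9.03 against 0.791 to 1.99. Each of these held in 6 of 6 libraries (exact sign-flip permutation p = 0.03125). Members were chosen to touch no annotated exon, and the others were assembled along annotated genes. This p-value therefore cannot tell a structure of the members from the rule that chose them. The share with 3 or more exons was 11.9%, 11.2% and 13.6% in the controls, against 17.9%, 15.1% and 8.84% after heat shock (exact permutation p = 0.6).

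Levels were then compared between heat shock and control, with a locus set to 0 in a library that listed none of its members. Of the 1092 loci, 338 had a mean of at least 1 FPKM and were fitted with 7202 genes in limma. None was called in either direction at an adjusted p under 0.05 (Benjamini-Hochberg) and over 2-fold, as was the case for 0% of all 7540 features. At an unadjusted limma p under 0.05, 34 loci were higher and 11 lower after heat shock (10.1% and 3.25% of loci), against 3.04% and 0.477% of all features. All 45 were listed in at least 2 libraries. A locus set to 0 in all but 1 library can hardly reach this p-value at any level, so their recurrence gives no support. Higher loci were 75.6% of the 45 as deposited, and 40.0%, 33.3% and 58.3% of such loci when libraries were scaled to all genes, to the abundant genes or to TPM. Over all features that share also fell, from 86.4% to 63.6%, 50.6% and 58.0%. The direction depended on the zeros and the minimum level as well. With every overlapping assembled transcript summed, strandless ones included, 31 loci were higher and 45 lower (40.8% higher, against 75.6% over all features). At a minimum mean of 10 FPKM, 5 were higher and 8 lower (38.5% higher, against 78.6% over all features). The libraries of both groups did not overlap for 5 higher and 2 lower loci (1.48% and 0.592%), against a background of 3.3% and 0.703%.

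Those 7 loci include the 4 that followed the groups throughout. A locus in PPP1R14B-AS1, a long non-coding RNA on chromosome 11 (chr11:64012964-64016387, + strand), was at 6.41, 2.96 and 0.817 FPKM after heat shock and had no member in the controls, and with strandless transcripts counted it was at 0, 0 and 9.68 FPKM in the controls, against 9.90, 9.25 and 5.45 after heat shock. A locus inside MACROD1, which encodes a hydrolase that removes ADP-ribose (chr11:63777563-63780549, - strand), was at 2.46, 2.86 and 2.20 FPKM after heat shock and had no member in the controls either. With strandless transcripts counted it was at 0, 0 and 8.53 FPKM in the controls, against 8.47, 11.9 and 2.88 after heat shock, so in both loci control replicate 3 then lay among the heat shock libraries. Its 3 introns were all AT-AC, had like ends and were each listed in 1 library only, so no splice junction recurred there. Both had an adjusted p of 0.797 (limma, Benjamini-Hochberg).

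Both loci listed in controls only lay near assembly gaps and had like ends in all their introns. The locus on chromosome 7 (chr7:61968214-62000902, + strand) was at 68.2, 2440 and 43.2 FPKM in the controls and listed at 0 after heat shock. Its exons held 5 CENP-B boxes and began 914 kb from the gap. Its adjusted p of 0.148 was the lowest among loci. Counting every transcript over its exons, strandless ones included, gave 336, 2547 and 288 FPKM in the controls, against 279, 87.0 and 915 after heat shock, and the groups then overlapped. The locus on chromosome Y (chrY:58976816-58997148, - strand), where GGAAT motifs reached 27.5 per kb, was at 4.78, 2.67 and 17.1 FPKM in the controls. With strandless transcripts it too had a transcript listed in every library, at up to 21.3 FPKM in the controls and 6.91 to 49.7 after heat shock. Near-identical satellite copies share reads, so these values do not show that the RNA came from chromosome Y.

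The other 3 loci were named after their values were seen. FBRS shared an intron with a locus at 0, 2.33 and 0 FPKM in the controls, against 6.56, 6.87 and 3.15 after heat shock. RGS9, which encodes a regulator of G-protein signalling, shared one with a locus at 0, 1.79 and 0 FPKM in the controls, against 6.70, 7.84 and 1.87 after heat shock. A locus on chromosome 4 (chr4:2465414-2470462, - strand) was at 1.33, 0 and 0 FPKM against 5.56, 23.1 and 2.03. None of their introns had like ends. In RGS9 the lowest heat shock library and the highest control differed by under 0.1 FPKM.

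**Figure D4:**
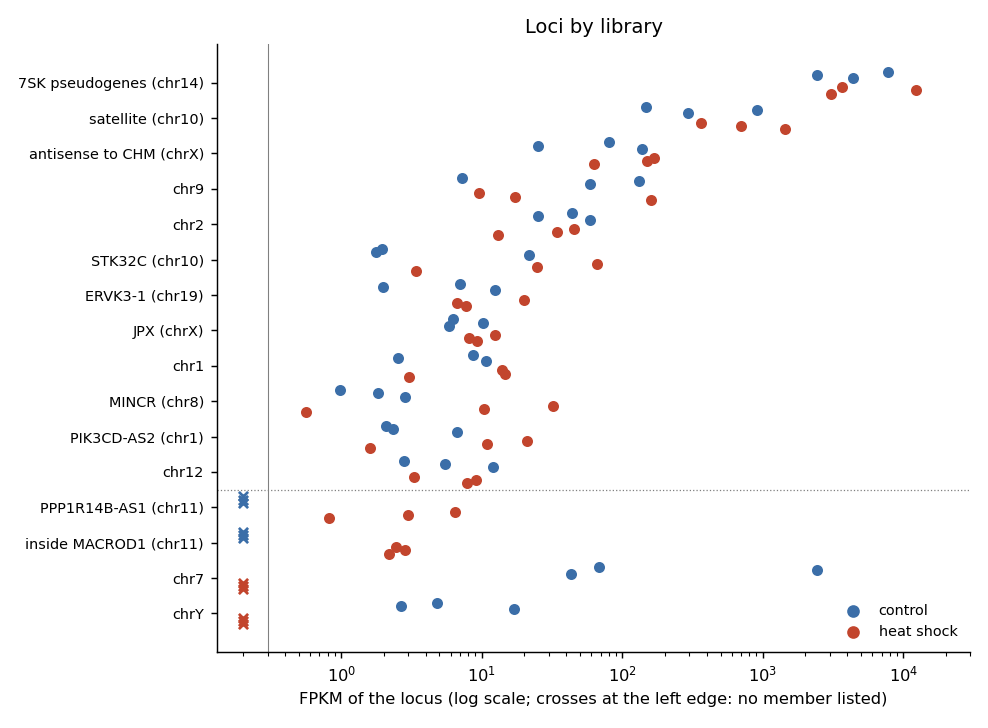
FPKM per library (x axis, log scale) for the 12 loci listed in all 6 libraries, above the dotted line, and the 4 loci listed throughout one group and not in the other, below it; the chromosome is in brackets. Crosses mark libraries that list no member, and among the 12 upper loci the colours overlap in every row.

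Among the 12 loci listed in all 6 libraries, the 7SK pseudogene locus (chr14:90088270-90179163, + strand) had the highest level. 7SK is an abundant small nuclear RNA that holds the elongation factor P-TEFb inactive, and its many pseudogene copies share its sequence. The locus was at 7750, 2445 and 4369 FPKM in the controls, against 3628, 12297 and 3048 after heat shock, and the groups overlapped. Its 2 exons lay in RN7SKP255 and RN7SKP107, 90593 bases apart, over 301 bases in all. The change was 0.24 ± 0.60 (SE) on the log2(FPKM + 1) scale (limma adjusted p = 0.853), and it turned negative when the libraries were scaled to the genes (-0.45).

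Other repeat-like loci were listed throughout as well. The satellite locus on chromosome 10 (chr10:42382763-42600734, - strand), 27.8 kb from the gap, was at 147, 903 and 291 FPKM in the controls, against 361, 701 and 1446 after heat shock. With strandless transcripts counted it was at 2494, 2054 and 1116 FPKM in the controls, against 2799, 2055 and 7744 after heat shock, and the groups still overlapped. Its 11 introns, 4 of them GT-AG, all had like ends. A locus on chromosome 9 (chr9:44874582-44995999, - strand) was at 7.21, 132 and 58.6 FPKM against 9.49, 17.2 and 159. A locus on chromosome 2 (chr2:133024050-133029419, + strand) was at 43.6, 25.3 and 58.4 FPKM against 45.0, 34.4 and 13.1, and none of its 11 introns was GT-AG. Highest and lowest libraries of each differed several-fold within a group.

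The remaining 8 of these loci had GT-AG introns with no like ends. The locus antisense to CHM, the Rab escort protein gene, held a 3527-base intron (chrX:85145571-85149382, + strand) and was at 80.4, 25.2 and 139 FPKM in the controls, against 167, 150 and 62.5 after heat shock. Its exons overlapped exons of CHM on the other strand, and without strand information their reads cannot be told apart. GENCODE 44 held 5 of the 7 GT-AG introns that were listed in all 6 libraries, and this intron was one of the other two. The change was 0.81 ± 1.03 (SE) on the log2(FPKM + 1) scale (limma adjusted p = 0.797).

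A locus that GENCODE 44 assigns to STK32C, a serine/threonine kinase gene (chr10:134137645-134145725, - strand), was at 1.94, 1.77 and 21.6 FPKM in the controls, against 66.2, 24.6 and 3.43 after heat shock. PIK3CD-AS2, antisense to a phosphoinositide 3-kinase gene (chr1:9735643-9749474, - strand), was at 2.07, 2.32 and 6.71 FPKM against 20.9, 11.0 and 1.59. MINCR, a MYC-induced long non-coding RNA on chromosome 8, was at 0.974, 1.81 and 2.84 FPKM against 32.4, 10.4 and 0.562. In all 3, heat shock replicates 1 and 2 were above every control and heat shock replicate 3 was within or under the controls. Exons of the STK32C and MINCR loci overlapped annotated exons on the other strand, and without strand information their reads cannot be told apart. With strandless transcripts counted, STK32C and PIK3CD-AS2 kept this order. MINCR did not, at 37.1 FPKM in control replicate 3 against 32.4 in heat shock replicate 1. Assembled lengths differed too. MINCR had 9519, 3410 and 2105 bases in the controls, against 339 and 694, 570 and 3132 after heat shock. For PIK3CD-AS2 they were 7633, 1867 and 909 bases against 545, 880 and 5898. FPKM is scaled to length, and the part of this in the levels was not tested. The changes of the 3 loci were 1.79 ± 1.20, 1.04 ± 0.97 and 1.60 ± 1.04 (SE) on the log2(FPKM + 1) scale, with a limma adjusted p of 0.797 each.

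JPX, a long non-coding RNA of the X inactivation centre, is annotated, but a locus within its span (chrX:73218436-73224826, + strand) overlapped none of its exons in the guiding annotation. It was at 6.28, 10.2 and 5.87 FPKM in the controls, against 12.5, 8.16 and 9.30 after heat shock. JPX itself, summed over its annotated transcripts and the assembled ones grouped with it, was at 1.04 to 1.67 FPKM. In fold terms the locus varied less between libraries than any of the other 11. A locus at ERVK3-1, an endogenous retrovirus gene on chromosome 19 (chr19:58816368-58827611, + strand), was at 7.02, 1.98 and 12.5 FPKM against 19.8, 6.61 and 7.73. With strandless transcripts counted it was at 11.0, 12.7 and 12.5 FPKM against 45.9, 42.9 and 8.86. A locus on chromosome 1 (chr1:143913826-144053600, + strand) held a 97592-base GT-AG intron in all 6 libraries and was at 8.59, 2.51 and 10.6 FPKM against 14.0, 14.7 and 3.05.

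The longest structures had 7 exons. Paired loci on chromosome 12 carried such a transcript in 1 library each, one over a GENCODE pseudogene (chr12:9549569-9555061, - strand) and one in an unnamed long non-coding RNA (chr12:31264452-31272042, - strand). Of the 6 introns of the first, 3 had a counterpart in the other, with at least 29 of 30 bases identical in both windows and lengths of 1310 and 1312, 372 and 372, and 1420 and 1429 bases. The ends of the shared 372-base intron are identical in both copies.
Chromosome 12 pair, 5′ end: tcatccattgaagagGTaaataatagaagc
Chromosome 12 pair, 3′ end: acaatttcttcaaAGcttgaaaacaagggc
Copies this alike can exchange reads, so their levels are uncertain. The first was at 8.26, 5.62 and 6.46 FPKM in the controls, against 64.4, 8.80 and 0 after heat shock, and the other at 2.78, 5.49 and 12.0 against 3.28, 9.03 and 7.83. Most of these values belong to shorter transcripts. In the same order, the first had at most 2, 2 and 3 exons in the controls, against 2, 7 and 0 after heat shock. The other had 6, 5 and 4 exons against 7, 5 and 2. NUTM2B-AS1, a long non-coding RNA on chromosome 10 (chr10:81451260-81586046, - strand), also reached 7 exons, in heat shock replicate 2, and all of its 6 introns were in GENCODE. It was listed in control replicate 3 (7.68 FPKM, 2 exons) and heat shock replicates 1 and 2 (24.7 and 11.0 FPKM, up to 6 and 7 exons). Its exons overlapped annotated exons on the other strand, whose reads cannot be told apart without strand information.

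High values also came from single libraries. A locus on chromosome 19 (chr19:24184056-24185621, - strand) reached 3792 FPKM in heat shock replicate 1, in a transcript of 103 bases. It had no member in the other libraries, where transcripts without strand summed to 19.5 to 437 FPKM. Another on chromosome 12 (chr12:127650246-127652017, - strand), over a region once annotated as a microRNA, was at 182 FPKM in control replicate 1 and 2556 FPKM in heat shock replicate 2. Its transcripts there were 423 and 205 bases long. FPKM is scaled to length, and the part of this in the values of both loci was not tested. With strandless transcripts counted, the chromosome 12 locus was present in every library, at 174 to 1065 FPKM in the controls and 349 to 2556 FPKM after heat shock.

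The likeness of intron ends also marked loci whose values lay on different sides. Of 1091 loci with readable ends, 506 had like ends in every intron and 540 in none. After heat shock, 46 of the 126 tested loci of the first class were higher (36.5%, median change -0.96 on the log2(FPKM + 1) scale), as were 162 of the 198 tested loci of the other (81.8%, median 1.08). Over all features 84.1% were higher, with a median of 0.69. A locus listed in 1 library takes its sign from that library, so loci listed in at least 2 were also taken alone, and gave 36.8% of 57 (median -0.46) and 82.4% of 108 (median 0.81). The share of the class without like ends was 52.9% with no minimum FPKM (median 0.23), 58.0% when scaled to the abundant genes (median 0.34) and 61.1% with every overlapping transcript summed (median 0.40, under the 0.65 of all features). These counts describe loci that passed a minimum level and were not tested. Like ends were most frequent in the libraries with many strandless transcripts, and the part of this in the difference was not tested.

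**Figure D5:**
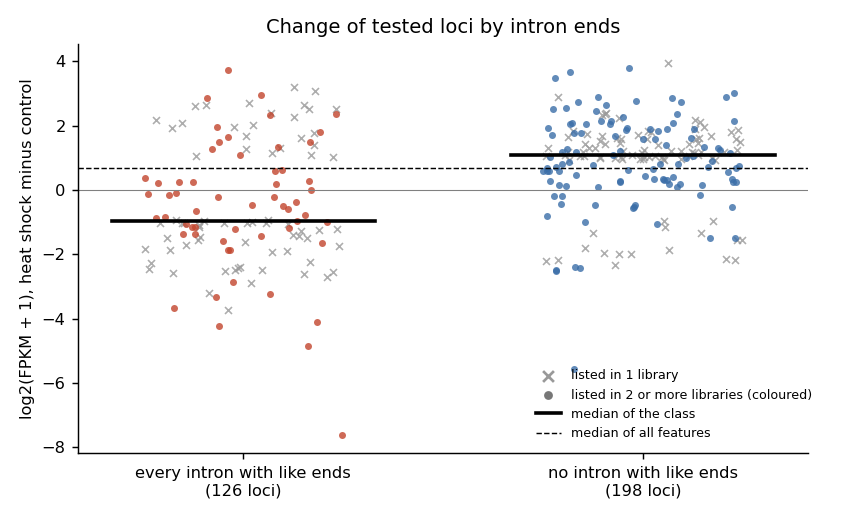
Difference between heat shock and control on the log2(FPKM + 1) scale (y axis) for tested loci with like ends in every intron or in none (x axis); black bars are class medians, crosses are loci listed in 1 library, and points are spread sideways to be seen. Class medians are -0.96 and 1.08, and the dashed line at 0.69 is the median of all features.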

How the data were processed

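The members and lists were chosen with earlier results of these data known. Per the methods, the authors trimmed reads with Trimmomatic 0.3.0 after FastQC 0.10.1, mapped what was left with TopHat2 (hg19) and built transcripts with Cufflinks 2.0.2, guided by an hg19 annotation. The deposited files list every transcript per library with its exons and FPKM, normalised by Cufflinks, with no counts. TopHat2 splits reads only at a few kinds of intron ends and sets the strand from them. A deposited table of the authors' own comparison was not used.

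Member transcripts were joined to loci by same-strand exon overlap, and their FPKM was summed. Annotated genes were summed over annotated transcripts, of which 96.5% were named by the RefSeq table. Features whose mean reached 1 FPKM entered a fit on log2(FPKM + 1) with limma 3.58.1 (eBayes with trend, R 4.3.3), with no block, Benjamini-Hochberg adjusted over all features, and called at an adjusted p under 0.05 and over 2-fold. The fit was tested on simulated data. Single values per library were compared by exact two-sided permutation over libraries. Fold changes on this scale understate changes of low loci. Titles number replicates 1 to 3 in both groups, but same-numbered libraries did not deviate together (r = 0.018, -0.101 and -0.110).

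Intron ends were read from GRCh37 (pysam 0.24.0) and compared with GENCODE 44. No sequence was read for 1 mitochondrial locus. The count of identical bases between intron ends was added after the data had been seen, as was a fit with assembled transcripts summed into genes. Loci named were the 8 of highest mean FPKM among those in all 6 libraries, those listed throughout one group only, the 3 with most exons and the 3 of highest FPKM in a library. The other loci in all 6 libraries and the loci whose groups did not overlap were added after their values were seen. Alternatives were the pseudocount, minimum level, scaling, eBayes trend, block, summing of all overlapping transcripts, joining rule, minimum exons, length or FPKM of members, and leaving out each library.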

Additional observations from a re-analysis of the deposited data

How the results depend on the processing

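With 3 libraries a group and no counts, only large changes could be called, and a locus at 0 may have been assembled without strand. Loci were called under some settings only. A pseudocount of 0.1 gave 0 higher and 1 lower, a minimum mean of 10 FPKM gave 0 and 3, and the unadjusted p gave 34 and 11 (limma). Over all features the first 2 settings called 1 and 1, and 0 and 3. Without 1 library at a time, 0 to 3 were called higher and 0 to 6 lower, the most lower without control replicate 3, where they were all 6 lower features, and the most higher without heat shock replicate 3, among 10 higher features. The lower locus under the pseudocount was the chromosome 7 locus, whose adjusted p (limma, Benjamini-Hochberg) was 4.4e-06 without control replicate 3 and missed the threshold without control replicate 2 or heat shock replicate 3. With the replicate number as a block, 0 loci were called higher and 1 lower, again that locus, though the numbers do not pair the libraries. Over all features the block gave 1 higher and 1 lower. Loci listed in all 3 heat shock and no control libraries numbered 1 at 1 FPKM or more, 0 with at least 3 exons, 1 when joined by an identical intron and 4 to 20 without 1 library. The reverse count was 0 with at least 3 exons, 1 when joined by span, 0 by an identical intron and 3 to 36 without 1 library. The highest counts were without heat shock replicate 3 for the first and without control replicate 3 for the reverse. With at least 3 exons, 0 loci were in all 6 libraries. Without heat shock replicate 1, the difference in the share with 3 or more exons went from 1.73 to -0.24 percentage points, and it was 4.28 without heat shock replicate 3. The excess of like ends over introns in genes (43.2 percentage points) was 39.4 to 47.4 without 1 library, with an exact permutation p of 0.0625, the smallest that 5 libraries can give. Scaling moved the median change of all features from 0.69 to 0.14 (all genes), -0.00 (abundant genes) or 0.12 (TPM) on the log2 scale, and that of the loci from 0.79 to -0.03, -0.26 or -0.07. The 7SK, chromosome 1, JPX and both 7-exon chromosome 12 loci went from higher to lower under all 3 scalings, and the locus antisense to CHM under the abundant genes only. Higher loci were then 40.0%, 33.3% and 58.3% of those at an unadjusted limma p under 0.05, against 75.6% as deposited. The medians of loci with like ends stayed below and those of loci without them stayed above 0 under every setting of the fit, from -1.89 to -0.37 and from 0.23 to 2.09. Causes of these changes were not tested.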
